A study of Homo sapiens and Mus musculus with 13 samples.

Results

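POU5F1, SOX2, NANOG, LIN28A, LIN28B, SALL4, DNMT3B and TERT are 8 human genes tied to pluripotency and self-renewal, and they were examined here for RNA:DNA hybrids in the human lists of a hybrid mapping study. A peak was counted for a gene when it touched the gene's hg19 bounds extended by 5 kb on either side. By this rule 154 peaks were found, of 325035 in the 6 human lists. All 8 genes had a peak in at least 1 list.

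NT2 cells are pluripotent and derive from a testicular embryonal carcinoma. K562 cells derive from a leukaemia and resemble early erythroid and myeloid cells. DRIP-seq enriches restriction-cut genomic DNA with an antibody to RNA:DNA hybrids and reads the DNA, which gives no strand. DRIPc-seq reads the hybrids' RNA instead and thereby gives every peak its strand. The NT2 lists were DRIPc-seq, DRIP-seq with RNase H, DRIP-seq with RNase A, DRIP-seq after digest B, and DRIP-seq after digest A. K562 had 1 DRIP-seq list. Digest B used BamHI, NcoI, ApaL1, NheI and PvuII, and digest A, which the labels give for every other human list, used SspI, XbaI, BsrGI, EcoRI and HindIII. The labels name no gene perturbation in either line. Each list stands for 1 sample, except that of DRIPc-seq, which stands for 2, so no difference below has a replicate check. The lists hold positions with no read counts, so the depth of each library is unknown and a missing peak means only that no peak was called there.

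An R-loop forms when RNA pairs with the DNA strand that templated it and leaves the other DNA strand unpaired. Such hybrids are known at starts and ends of transcribed genes, and G-rich RNA favours them. RNase H degrades RNA within hybrids and is the usual negative control, while RNase A degrades free RNA. POU5F1 (OCT4), SOX2 and NANOG are the core transcription factors of pluripotent cells. SALL4 is a zinc finger factor of the same network. LIN28A and LIN28B are RNA-binding proteins that block maturation of let-7 microRNAs. DNMT3B is a de novo DNA methyltransferase, and TERT is the catalytic subunit of telomerase. RNA levels of these genes were not analysed here, in either line.

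The sequences before 3 of the genes are shown as examples of different patterns at the start. SOX2 had NT2 peaks over it, and NANOG had none. LIN28B has 2 starts among the promoter entries, with a K562 peak over one and NT2 peaks at about the distance of the other. They are the 250 bases upstream of starts given by RefSeq on GRCh38.p14, on the strand of the gene, and runs of at least 4 G or 4 C are in capitals.
SOX2, chr3:181711675-181711924: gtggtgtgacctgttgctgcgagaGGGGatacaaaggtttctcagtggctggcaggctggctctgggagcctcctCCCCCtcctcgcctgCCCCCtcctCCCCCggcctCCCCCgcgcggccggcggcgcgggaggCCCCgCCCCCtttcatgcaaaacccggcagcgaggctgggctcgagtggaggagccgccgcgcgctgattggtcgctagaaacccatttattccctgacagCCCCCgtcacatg
LIN28B, upstream start, chr6:104940715-104940964: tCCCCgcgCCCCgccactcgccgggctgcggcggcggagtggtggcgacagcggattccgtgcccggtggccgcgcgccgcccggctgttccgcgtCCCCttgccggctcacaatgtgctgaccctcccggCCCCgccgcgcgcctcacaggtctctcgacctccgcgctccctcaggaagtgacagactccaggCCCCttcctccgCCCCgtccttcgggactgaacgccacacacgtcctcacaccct
LIN28B, downstream start, chr6:104956857-104957106: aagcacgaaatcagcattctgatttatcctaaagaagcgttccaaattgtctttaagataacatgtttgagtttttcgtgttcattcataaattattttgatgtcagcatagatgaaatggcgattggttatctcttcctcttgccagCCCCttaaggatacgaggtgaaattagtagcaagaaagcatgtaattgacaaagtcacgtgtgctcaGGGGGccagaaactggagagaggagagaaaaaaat
NANOG, chr12:7789152-7789401: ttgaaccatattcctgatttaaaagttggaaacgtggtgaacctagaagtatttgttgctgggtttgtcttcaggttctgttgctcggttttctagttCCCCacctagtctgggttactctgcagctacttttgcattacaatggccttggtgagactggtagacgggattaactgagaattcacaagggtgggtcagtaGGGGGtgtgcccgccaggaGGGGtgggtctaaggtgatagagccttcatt
The SOX2 stretch was 68.8% G and C with 20 CpG dinucleotides, and the upstream LIN28B stretch was 73.6% with 33. The downstream LIN28B stretch was 38.4% with 6 CpG, and that of NANOG was 47.6% with 4. The stretches of the other matched genes, not printed, were 78.8% with 28 CpG for TERT and 64% with 3 for DNMT3B. The DNMT3B entry's start lies 29505 bases from the gene's end, against 46972 for the bounds used here. Over all 35116 promoter entries of the table, the medians were 58% and 11 CpG. SOX2 held 1 run of G and 7 of C, and upstream LIN28B held 0 and 6. Downstream LIN28B held 1 of each, and NANOG 2 and 1. The motif GGGG was present on the printed strand in 70.3% of all entries and CCCC, its complement, in 70.0%, so such runs are common in these windows. RefSeq's NANOG start lies 9745 bases from the gene's end, against 6666 for the bounds used here, so that stretch is not directly before the start used for peaks. The table matched 5 of the 8 genes by symbol, and POU5F1, LIN28A and SALL4 have no entry in it.

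Cover differed widely between the genes and between the lists. Peaks lay within 5 kb of 5 of the 8 genes in DRIPc-seq, 1 with RNase H, 8 with RNase A, 6 in digest B, 6 in digest A and 4 in K562. DRIPc-seq covered 17.0% of the 348.1 kb in the 8 windows, RNase H 0.467%, RNase A 31.2%, digest B 21.9%, digest A 16.4% and K562 10.7%. On the 6 chromosomes that hold the genes, measured to the last listed human peak, the same lists covered 8.26%, 0.489%, 4.90%, 6.57%, 4.37% and 3.53%. The windows thus held more cover than their chromosomes in every list except RNase H; they are gene regions, and no other gene regions were measured beside them because no hg19 annotation was used. In digest A, the order by share of window covered was POU5F1 (94.4%), DNMT3B (32.1%), TERT (30.5%), SOX2 (15.2%), LIN28A (6.14%) and LIN28B (2.75%), with SALL4 and NANOG at 0. With 1 list per condition, no spread is available to say which neighbours in this order differ.

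**Figure D1:**
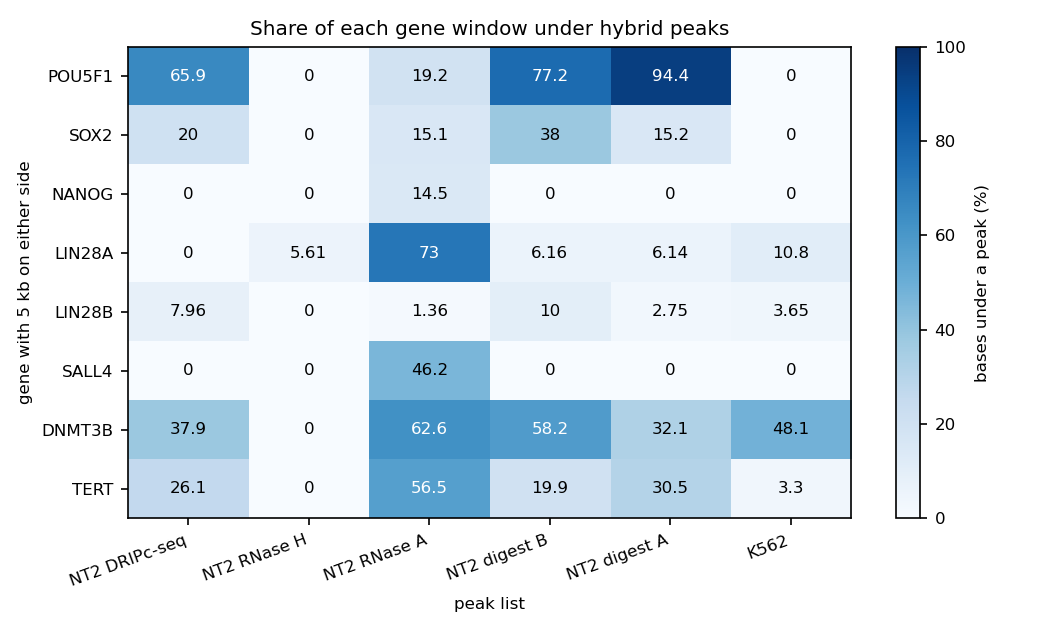
Share of bases under a peak (%), as colour and number, for each gene with 5 kb on either side (rows) and each human peak list (columns). POU5F1 reaches 94.4% in NT2 digest A and 0 in K562, and SALL4 and NANOG are above 0 in the RNase A list alone among the 6.

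POU5F1 was the most fully covered gene in the untreated NT2 DRIP lists. The gene lies on the minus strand of chromosome 6 (31132119 to 31138451), between TCF19 downstream and PSORS1C3 upstream in RefSeq's gene order. Digest B peaks covered 91.9% of the gene, and digest A peaks 99.97%. The longest digest A peak, from 31135747 to 31144136 (8.39 kb), spanned the start, and the longest digest B peak, from 31116063 to 31135242 (19.2 kb), ran far past the gene's end. Digest A peaks met at the gene with gaps of 1 base, a spacing found 3795 times in that list. With RNase A, 3 peaks covered 10.5% of the gene, and with RNase H no peak was called within 1829 kb of it.

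DRIPc-seq signal over POU5F1 lay on the strand of the neighbouring gene TCF19. NT2 DRIPc-seq held 1 peak in the window, of 10.8 kb on the plus strand from 31127233 to 31137992, whereas POU5F1 is read from the minus strand. It covered 92.8% of the gene and ended 0.459 kb short of the start. RefSeq places TCF19, a factor linked to cell cycle progression, next to POU5F1 on the plus strand. No minus-strand DRIPc peak was called in the window; one of 4.90 kb lay beyond the gene's end, 12.9 to 17.8 kb from its start. Which transcript gave the plus-strand signal was not tested.

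K562 had no peak near POU5F1, but the region as a whole was thin in that list. The nearest K562 peak lay 248.4 kb from the gene. Within 500 kb of POU5F1 there were 80 digest A and 15 K562 peaks, and 18 of the 80 digest A peaks touched a K562 peak (22.5%, exact Clopper-Pearson 95% interval 13.9 to 33.2%). The K562 list also holds 511 peaks on 7 alternate haplotype sequences of chromosome 6, which no NT2 list contains and which carry copies of this region. A gene without hybrids in K562 cannot be told apart here from reads placed on the haplotype copies. The RNase A list had 23 peaks within 500 kb and covered 2.83% of that stretch, against 22.3% for digest A, with no haplotype sequences in either.

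SOX2 showed a divergent pattern around its start. The gene is a single exon on the plus strand of chromosome 3 (181429712 to 181432224), inside the noncoding gene SOX2-OT, which runs on the same strand. DRIPc-seq placed 3 minus-strand peaks from 1.32 kb upstream to 0.082 kb downstream of the start, with gaps of 1 base between them. A plus-strand peak of 1.10 kb followed inside the gene, from 0.466 to 1.56 kb. The strands did not overlap, with 1.41 kb on the minus strand and 1.10 kb on the plus strand.

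The SOX2 DRIP peaks fell on the same stretch. Digest B held 1 peak of 4.76 kb, from 181427015 to 181431773, and digest A 1 peak of 1.91 kb, from 181429455 to 181431359. The RNase A list held a peak of 0.745 kb upstream (181428034 to 181428778) and one of 1.15 kb in the gene (181430198 to 181431347). With RefSeq's start taken as that of the bounds, the 250 bases printed above for SOX2 lie under the digest B and digest A peaks and the nearest minus-strand DRIPc peak, while both RNase A peaks leave them out. RNase H had no peak in the window; 1 of 0.555 kb lay just outside it, 5.77 to 6.32 kb upstream, and the other lists except RNase A had none between 5 and 10 kb from the gene.

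SOX2 had peaks in 4 NT2 lists and none in K562. The nearest K562 peak was 743.6 kb away. SOX2 lies in a region with few peaks in any list: within 500 kb DRIPc-seq had 5 peaks, RNase H 1, RNase A 4, digest B 1, digest A 1 and K562 0. The digest A peak at the SOX2 start was thus the sole one of its list within 500 kb. Its pattern, present in DRIPc-seq, RNase A and digest B but not in RNase H or K562, was shared by 7270 of all 67126 digest A peaks (10.8%), so it is a common one.

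**Figure D2:**
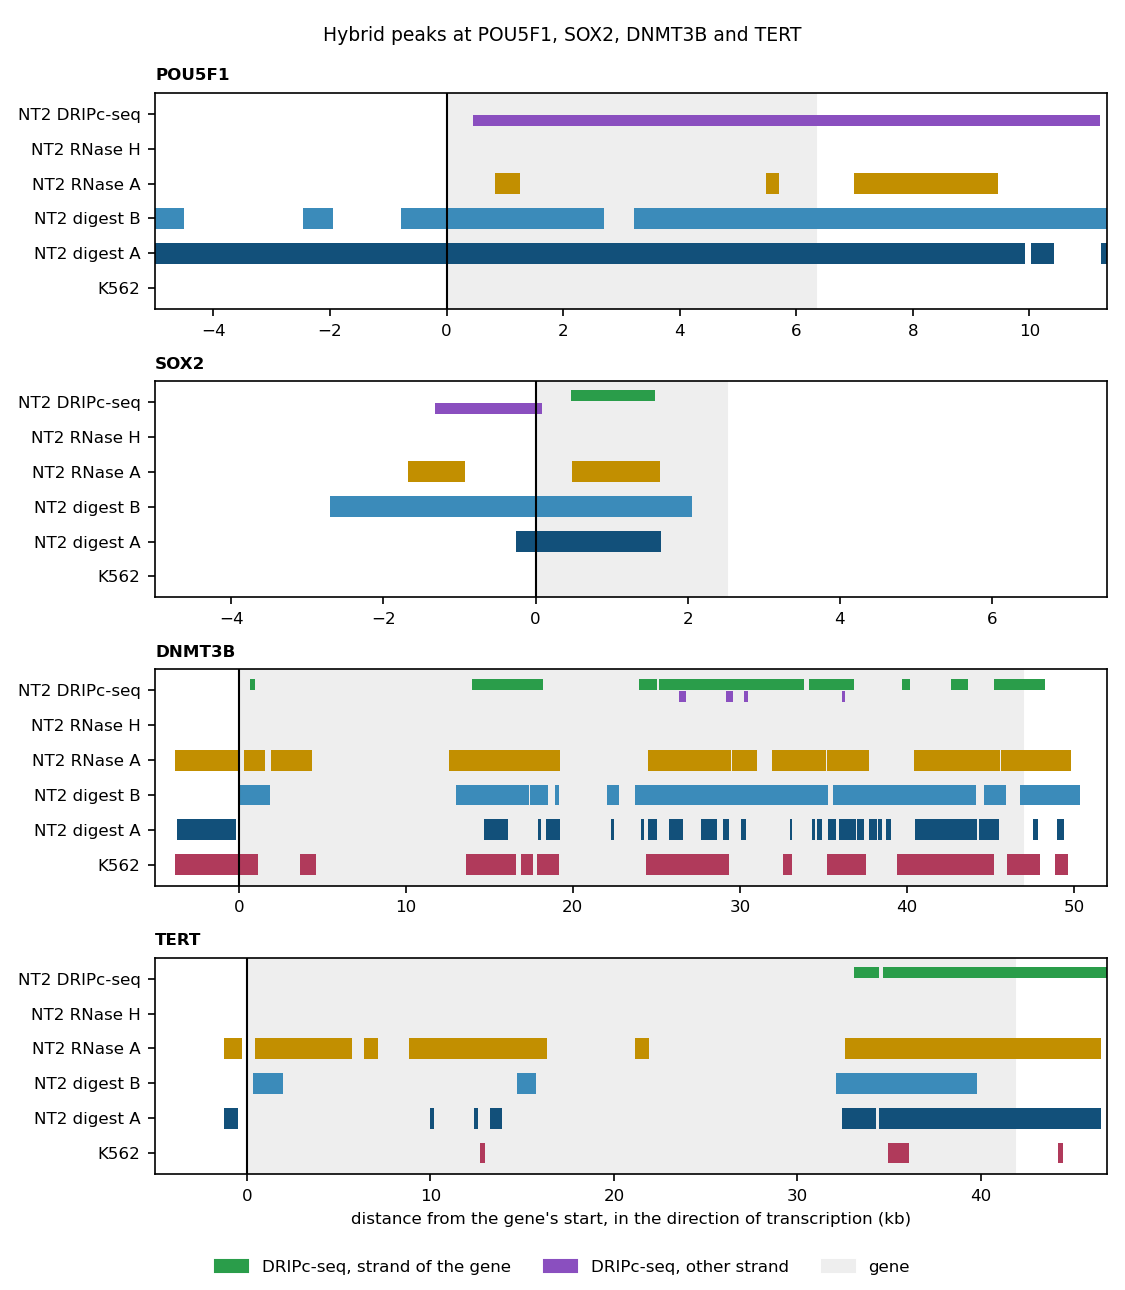
Peaks of the 6 human lists (rows) at POU5F1, SOX2, DNMT3B and TERT, by distance from the start of the gene in kb along the direction of transcription. Grey marks the gene, and DRIPc-seq peaks are green on the strand of the gene and purple on the other. The 10.8 kb POU5F1 peak is on the other strand, SOX2 has both strands apart, and the longest TERT peaks in NT2 lie at the gene's end.

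DNMT3B held more peaks than any other of the 8 genes in all lists but RNase H. It lies on the plus strand of chromosome 20 (31350191 to 31397162). There were 12 peaks in DRIPc-seq, 0 with RNase H, 14 with RNase A, 9 in digest B, 27 in digest A and 11 in K562. They covered 37.9%, 0%, 62.6%, 58.2%, 32.1% and 48.1% of the window in the same order. Digest A thus had the most peaks but the least cover of the lists with any, with peaks of 105 to 3522 bases.

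At the DNMT3B start the lists differed in where their peaks stopped. The K562 peak ran unbroken from 3.79 kb upstream to 1.17 kb downstream (31346405 to 31351363). In NT2, the RNase A peak began 3.81 kb upstream, stopped 0.035 kb before the start, and was followed by another from 0.342 to 1.56 kb. Digest A had a peak that stopped 0.152 kb before the start and none in the first 14 kb of the gene. Digest B had the opposite, a peak from 0.058 to 1.87 kb and none upstream within 5 kb.

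In the DNMT3B body, DRIPc-seq was almost all on the strand of the gene. Its 8 plus-strand peaks covered 21.6 kb, and the longest, of 8.68 kb, ran from 31375329 to 31384008. The 4 minus-strand peaks covered 1.21 kb and each touched a plus-strand peak. The last plus-strand peak, from 31395374 to 31398451, crossed the end of the gene and stopped 1.29 kb beyond it. Of the 27 digest A peaks, 26 touched a digest B peak, 23 an RNase A peak, 19 a DRIPc peak and 18 a K562 peak. Over all digest A peaks, the shares in the same order were 76.8%, 65.5%, 61.4% and 54.7%, so such overlaps are common in that list.

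TERT carried its longest NT2 peaks at the 3′ end. The gene lies on the minus strand of chromosome 5 (1253287 to 1295162), between CLPTM1L upstream and SLC6A18 downstream. DRIPc-seq held 2 peaks, both on the strand of the gene, of 1.37 kb and 12.4 kb; the longer (1248075 to 1260482) ran 5.21 kb past the end. Digest A held a peak of 12.1 kb over the same stretch (1248614 to 1260696). RNase A held one of 10.2 kb from 1252385 to 1262549, continued past the end by another of 3.79 kb. Digest B held one of 7.69 kb, from 1255362 to 1263054, which stopped inside the gene.

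K562 covered much less of TERT. Its 3 peaks, of 0.266, 1.16 and 0.289 kb, covered 3.30% of the window, against 26.1% for DRIPc-seq, 56.5% for RNase A, 19.9% for digest B and 30.5% for digest A. Within 500 kb of TERT, K562 covered 12.5% and digest A 30.6%, so the lists also differed around the gene. At the start, RNase A had peaks from 1.24 to 0.249 kb upstream and from 0.417 to 5.74 kb downstream. Digest A had only the upstream one (1.27 to 0.482 kb) and digest B only a downstream one (0.357 to 1.97 kb). In DRIPc-seq and K562 no peak lay within 1 kb of the TERT start.

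LIN28B differed between the lists of the cell lines at its start and upstream of it. The rule's bounds place the gene on the plus strand of chromosome 6 (105404923 to 105531207). RefSeq's promoter entries give 2 starts that are 16.1 kb apart on GRCh38.p14. The downstream one lies 126226 bases from the gene's end, close to the 126285 bases of the bounds used here. The upstream one lies 142368 bases from that end, whereas RefSeq's full gene bounds span 146307 bases and so begin further upstream. No NT2 list held a peak within 10 kb of this downstream start. K562 held one of 1.38 kb over it, from 105403805 to 105405182. It touched no peak of any other human list, as did 18.4% of all K562 peaks, and was the sole such peak among the 20 K562 peaks at the 8 genes.

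Upstream of the LIN28B window the lists were the other way round. Between 5 and 30 kb upstream of the start, digest A held 2 peaks, from 17.3 to 16.7 kb and from 16.1 to 15.6 kb. Digest B held one of 6177 bases from 17.3 to 11.1 kb, and RNase A had peaks from 20.2 to 19.4 kb and from 17.2 to 16.6 kb. DRIPc-seq had a short minus-strand peak from 20.9 to 20.7 kb. RNase H and K562 had none there. RefSeq lists LIN28B-AS1, on the minus strand, as overlapping LIN28B, and which transcript gave the DRIPc peak was not tested. The CpG-rich upstream start printed above lies about as far from the downstream one as these NT2 peaks do. RefSeq's full gene bounds begin further upstream still, and no hg19 position was taken for either.

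Inside LIN28B, a stretch from 32 to 45 kb past the start held peaks in most lists. They were seen in DRIPc-seq, RNase A, digest B, digest A and K562. Digest B held a peak of 9.36 kb there (105436998 to 105446358), while K562 had 3 peaks of 0.449 to 2.04 kb. All 6 DRIPc peaks were on the strand of the gene and covered 10.8 kb, with the longest, of 3.25 kb, from 105474426 to 105477678. K562 had no peak beyond 41 kb, whereas digest B, digest A and DRIPc-seq had peaks at 69 to 84 kb. Of the 7 digest A peaks, 5 touched a digest B peak, 3 an RNase A peak, 3 a DRIPc peak and 3 a K562 peak. The shares of the whole digest A list were 76.8%, 65.5%, 61.4% and 54.7% in the same order, and 7 peaks are too few to set against them.

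**Figure D3:**
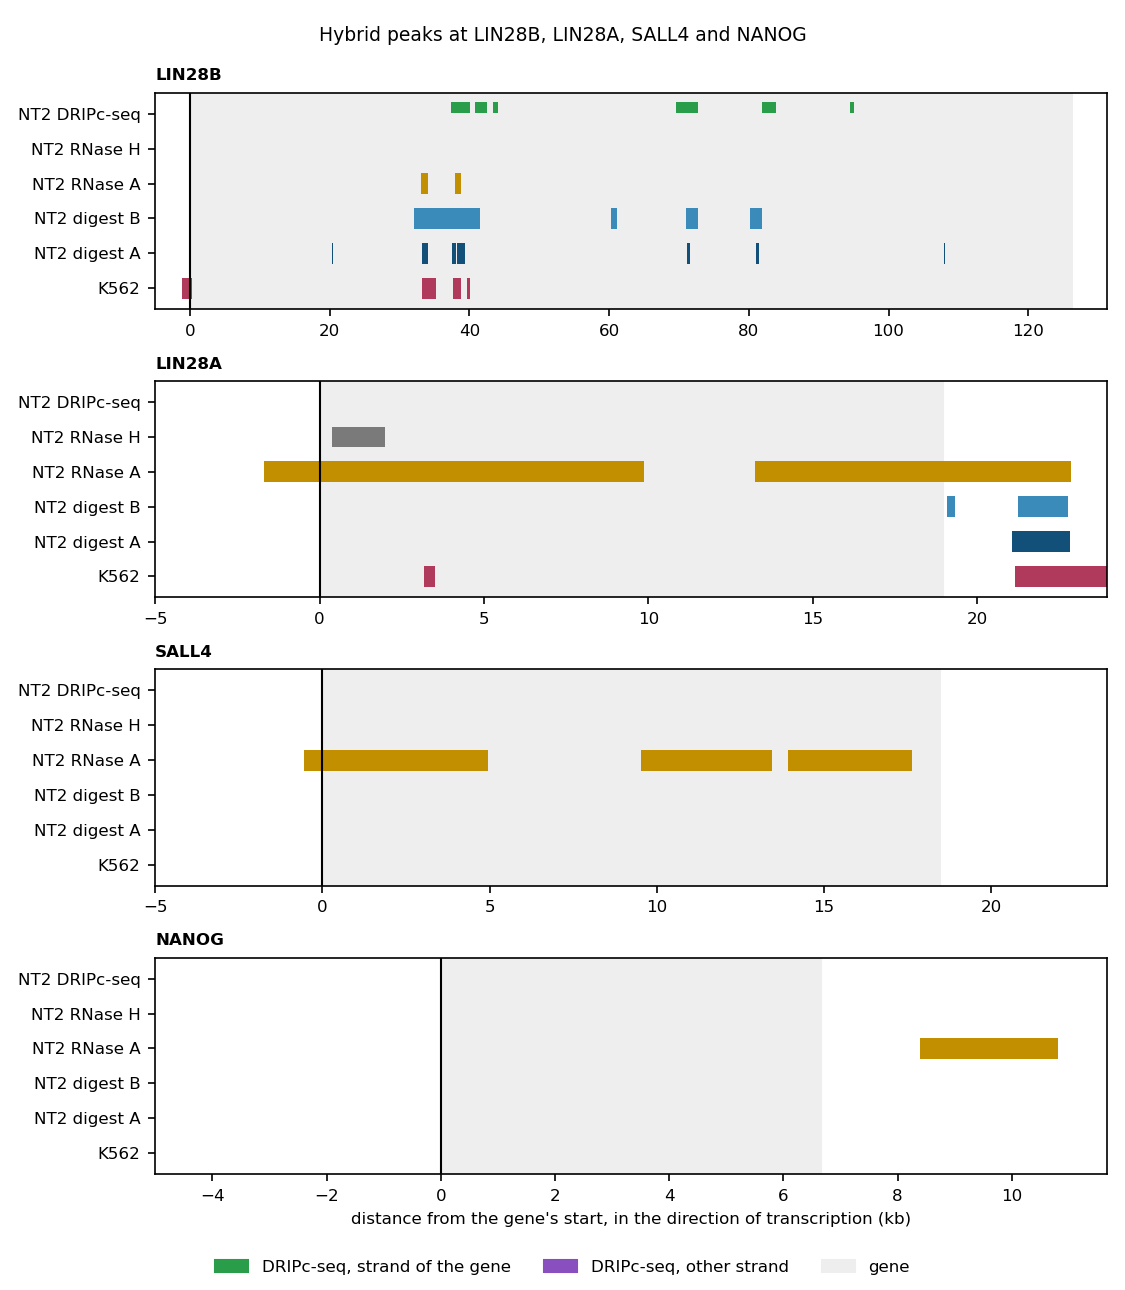
Peaks of the 6 human lists (rows) at LIN28B, LIN28A, SALL4 and NANOG, by distance from the start of the gene in kb along the direction of transcription, with the gene in grey. K562 has the only peak over the LIN28B start used here, and SALL4 and NANOG have peaks in the RNase A list alone.

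LIN28A was covered in the RNase A list and hardly in the untreated ones. It lies on the plus strand of chromosome 1 (26737269 to 26756219). RNase A peaks covered 82.1% of the gene, and the longest, of 11.5 kb, ran from 26735586 to 26747124 across the start. DRIPc-seq, digest B and digest A covered 0% of the gene, and K562 1.77%, through 1 peak of 0.336 kb. In digest B and digest A the peaks in the window lay beyond the gene's end, at 19.1 to 22.8 kb from the start, toward LOC124903883, the next gene in RefSeq's order. K562 had a peak of 6.61 kb there as well. Which other genes these peaks touch was not tested, because no hg19 annotation was used.

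LIN28A also gave the single RNase H peak among the 8 genes. It was 1.63 kb long, from 26737645 to 26739269, and began 0.376 kb after the start. It lay inside the long RNase A peak and touched no peak of DRIPc-seq, digest B, digest A or K562. The nature of that signal was not tested. Within 500 kb of LIN28A, the RNase H list covered 4.41%, against 31.6% for RNase A and 19.7% for digest A.

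SALL4 and NANOG had peaks in the RNase A list alone. SALL4 lies on the minus strand of chromosome 20 (50400583 to 50419048). Its 4 RNase A peaks, of 2.16 to 3.93 kb, covered 68.3% of the gene, and one of them, from 50417438 to 50419595, spanned the start. The nearest peak of another list was 12.6 kb from the gene in RNase H, 13.4 kb in digest A, 15.8 kb in digest B, 48.4 kb in DRIPc-seq and 239.7 kb in K562. NANOG, on the plus strand of chromosome 12 (7941992 to 7948657), had 1 RNase A peak of 2.42 kb, from 7950378 to 7952797, which began 1.72 kb past the gene's end. RNase H, DRIPc-seq, digest B, digest A and K562 had no peak within 21 kb of NANOG.

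The surroundings of these genes differed between the lists too. Within 500 kb of NANOG, the RNase A list covered 11.5% and digest A 2.92%. Around SALL4 the figures were 5.01% for RNase A and 2.84% for digest A, and around LIN28A 31.6% and 19.7%. The RNase A library is separate from digest A and the labels give the same enzymes, so RNase A and library differences cannot be told apart. POU5F1 and NANOG have processed pseudogenes elsewhere in the genome, and the treatment of reads that fit several places is unknown.

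Over all 8 genes, the RNase A list was compared with the others peak by peak. Of its 37 peaks at the genes, 23 touched a digest A peak (62.2%, 95% interval 44.8 to 77.5%), near the 65.7% of all RNase A peaks. A further 8 (21.6%, 9.83 to 38.2%) touched no peak of any other human list, against 17.6% of all RNase A peaks. These 8 were the 4 at SALL4, 1 at NANOG, 1 at LIN28A and 2 at TERT. One of the 37, at LIN28A, touched an RNase H peak (2.70%, 0.0684 to 14.2%), against 8.66% of all RNase A peaks. The intervals, here and below, cover counting error only, and peaks of 1 gene are not independent.

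Digest A peaks at these genes had no counterpart in the RNase H list. Of the 48 digest A peaks at the genes, 0 touched an RNase H peak, which allows a share of up to 6.25%, against 5.09% of all digest A peaks. The difference is within what 48 peaks can show. The share found in DRIPc-seq was 62.5% (47.4 to 76.0%), against 61.4% of all digest A peaks. It was 77.1% (62.7 to 88.0%) in RNase A, against 65.5%, and 85.4% (72.2 to 93.9%) in digest B, against 76.8%. In each of these the share of the whole list lay within the interval of the 48 peaks. The median length of the 48 peaks was 511.5 bases, against 1206 for the whole list. This rests largely on DNMT3B: the 21 peaks of the other genes, a view added after the data were examined, had a median of 879 bases.

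K562 shared some of the genes' peaks and not others. Of the 48 digest A peaks, 23 touched a K562 peak (47.9%, 33.3 to 62.8%), against 54.7% of the whole list. DNMT3B gave 18 of these 23. Without DNMT3B, a view added after the data were examined, 5 of 21 digest A peaks touched a K562 peak (23.8%): 3 at LIN28B, 1 beyond the end of LIN28A and 1 at TERT. All 6 at POU5F1, where the haplotype copies apply, and the 1 at SOX2 did not. In the other direction, 14 of the 20 K562 peaks at the genes touched a digest A peak (70.0%, 45.7 to 88.1%), against 67.3% of all K562 peaks.

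**Figure D4:**
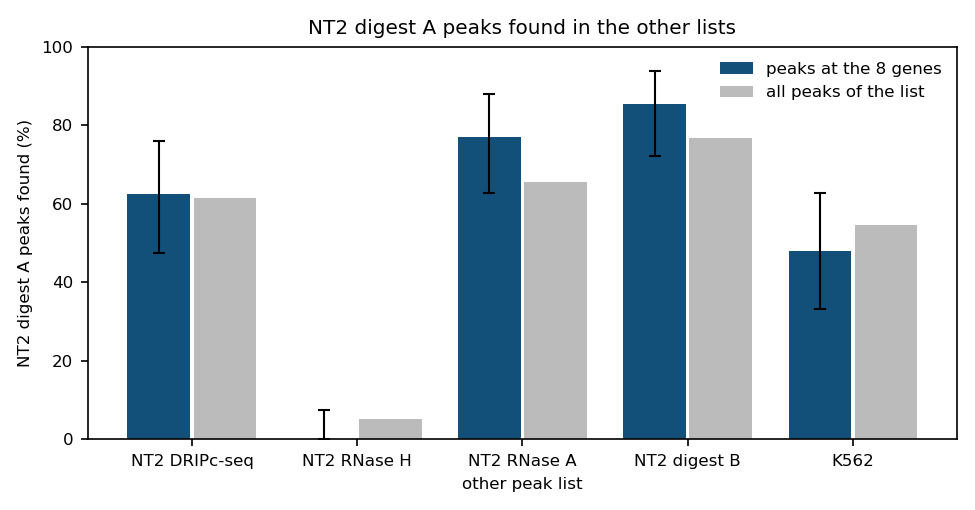
Share of NT2 digest A peaks (%) that touch a peak of each other list, for the 48 peaks at the 8 genes (blue, bars with exact 95% binomial intervals) and for all 67126 peaks of the list (grey). Each grey value lies within the interval of the genes' peaks, and 0 of 48 peaks was found after RNase H.

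Strand was measured by DRIPc-seq in NT2 alone. Of the 25 DRIPc peaks at the genes, 17 were on the strand of the gene (68.0%, 46.5 to 85.1%). They covered 47.1 kb, against 13.4 kb on the other strand. The same share at other genes was not measured, because no hg19 annotation was used, so whether this one is usual is unknown. The 8 peaks on the other strand were the long one at POU5F1, 3 upstream of SOX2 and 4 short ones in DNMT3B. LIN28A, SALL4 and NANOG had no DRIPc peak. Of the 25 peaks, 17 touched a digest A peak (68.0%, 46.5 to 85.1%), against 45.6% of all DRIPc peaks, just below the interval. DNMT3B gave 10 of these 17, and without it 7 of 13 did (53.8%, 25.1 to 80.8%), an interval that holds the share of the whole list. That view was likewise added after the data were examined. K562 has no strand information in these lists.

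**Figure D5:**
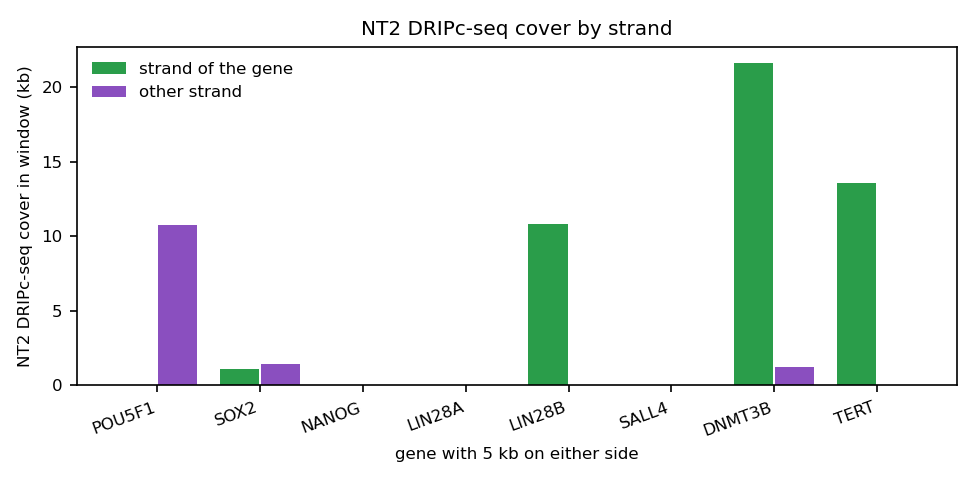
Length covered by NT2 DRIPc-seq peaks (kb, bars from 0) within 5 kb of each gene, on the strand of the gene (green) and on the other strand (purple). DNMT3B, TERT and LIN28B are mostly or wholly green, and POU5F1 has 10.8 kb on the other strand and none on its own.

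Starts were compared as the stretch within 1 kb on either side, strand ignored. Starts of other genes were not measured, because no hg19 annotation was used. A peak touched the stretch at 3 of the 8 genes in DRIPc-seq (POU5F1, SOX2 and DNMT3B), 1 with RNase H (LIN28A) and 6 with RNase A (all but NANOG and LIN28B). The DRIPc peak at POU5F1 was on the other strand, SOX2 had DRIPc peaks on both strands, and that at DNMT3B was on the strand of the gene. Digest B and digest A each had 4, namely POU5F1, SOX2, DNMT3B and TERT. K562 had 2, DNMT3B and LIN28B. By the starts used here, DNMT3B was thus the one gene whose start was touched in NT2 and in K562. At POU5F1, a start without hybrids in K562 cannot be told apart from reads placed on the haplotype copies. The upstream LIN28B start was not counted, and NT2 peaks lay at about its distance.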

How the data were processed

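The 6 human peak lists were used: NT2 DRIPc-seq, with 1 list for 2 samples per the labels, and 5 DRIP-seq lists of 1 sample each. As deposited by the authors, each list gives peak positions in base pairs (with strand in DRIPc-seq) and neither heights nor scores. Per the submitters' processing notes, the tools were TopHat2 2.0.5, BWA 0.6.1 and Bismark 0.7.7, with no roles stated, and hg19 was a build. The sources used here do not give the peak caller or threshold. Depth per sample is unknown.

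A peak belonged to a gene when it touched its bounds plus 5 kb. Lists were compared by a touch of at least 1 bp, strand ignored, with exact Clopper-Pearson 95% intervals (scipy 1.17.1). A check with bedtools 2.31.1 gave 36747 digest A peaks touching K562 by both routes. The interval functions were tested on simulated lists. With 1 list per group, no test was run. Gene strands came from RefSeq, or from textbook knowledge for POU5F1, LIN28A and SALL4. RefSeq tables are on GRCh38.p14 and served for names, gene order, strands, sequences and distances within a gene; no hg19 position was taken from them. The rule named all 8 genes. The members, lists and comparisons were chosen with earlier results of these data known. RNA-seq and methylation were not analysed here. Alternatives are given in the closing section.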

Additional observations from a re-analysis of the deposited data

Results flagged for a closer look

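On the 7 alternate haplotype sequences of chromosome 6, K562 had 511 listed peaks, and DRIPc-seq, RNase H, RNase A, digest B and digest A had 0. These peaks entered no comparison of the 8 genes, and they were picked out because they are signal in a part of the data left unused. POU5F1 lies in the region these sequences copy, and whether any of the 511 peaks is at a copy of POU5F1 was not tested.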

How the results depend on the processing

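Over 14 results and 88 alternative values, 80 stayed close to the reported value (a count within 1.5 times, a share within its interval) and 8 moved; for each, the cause was not tested unless stated. With windows of 10 kb in place of 5 kb, 2 genes had an RNase H peak, since the peak beside SOX2 then counted. With the longest 50% of each list, the share of digest A peaks at the genes found in DRIPc-seq was 46.2% (6 of 13), that of K562 peaks found in digest A was 44.4% (4 of 9), and that of DRIPc peaks on the strand of the gene was 88.9% (8 of 9). Counted in base pairs, 69.3% of digest A peaks was found in digest B. With at least 50% of a peak covered, 0 of 37 RNase A peaks was found after RNase H. Without DNMT3B, chosen after the data were examined, 71.4% of digest A peaks (15 of 21) was found in digest B and 23.8% in K562. Gene bounds alone and windows of 1 kb moved none of the 14 results beyond these limits. Counts of genes still fell with gene bounds alone, to 7 in RNase A, 5 in digest B and 5 in digest A. NANOG then had no peak in any list. Merging peaks within 1 kb was run for the 8 shares and moved none, and digest B in place of digest A was run only for the share of K562 peaks, which it did not move. No paired analysis was possible because each group has 1 list. Small numbers of peaks per gene and unknown depth limit all shares.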
